A study of Mus musculus with 12 samples.

Results

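Infarction was compared with sham surgery in the bone marrow of mice that were given EMPA in both groups. The comparison holds 6 of the 12 libraries of the series, chosen by their labels: 3 from the group called MI-E (MI with EMPA) and 3 from the group called Sham-E (sham surgery with EMPA). All mice were C57BL/6N. Infarction was made by tying off the LAD, the left anterior descending coronary artery, under isoflurane. Total RNA of whole marrow was sequenced. The dose and duration of EMPA, the time between surgery and collection, and the age and sex of the mice are not stated in the sources used. The labels do not tie each library to a mouse of its own, so the p-values measure the spread between these libraries, which may be technical. The other 6 libraries, MI and Sham without EMPA, are set beside the comparison and share no library with it. Libraries are named by group and column number: Sham-E 1, 2 and 3, and MI-E 2, 3 and 4.

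Bone marrow makes the blood cells, and its RNA is a mixture of neutrophil precursors, B-cell precursors, red-cell precursors, megakaryocytes and the stroma that houses them. After an infarct, signals from the heart and the nervous system are known to raise the output of neutrophils and monocytes from marrow, often at the cost of lymphoid precursors. Type I interferons act on marrow cells through a transcription factor complex that holds IRF9, which binds a short promoter sequence and switches on genes such as the Ifit, Oas and Gbp families.

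The 6 libraries had 22068255 to 24502920 counts each. Markers of neutrophils, red-cell precursors and B-lineage cells were detected in all 6: S100a8 and S100a9 together took 1.96% to 3.09% of counts and haemoglobin genes 0.572% to 3.12%. Sham-E 1 stood apart. Its correlation of log2 CPM (CPM is counts scaled to a common library size) with Sham-E 2 and Sham-E 3 was 0.945 to 0.959 across genes, against 0.981 between Sham-E 2 and 3 and 0.981 to 0.985 within MI-E. It lay below all 5 other libraries in 3862 of 15119 genes (25.5%) and above all 5 in 3882 (25.7%). Results that rest on it are given with and without it.

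No gene passed the test with all libraries. With edgeR's quasi-likelihood test, 0 of 15119 genes (0%) reached a Benjamini-Hochberg adjusted p of 0.05. An unadjusted p under 0.05 was found for 2031 genes (13.4%), 905 higher in MI-E (5.99%) and 1126 lower (7.45%). The 3 MI-E libraries lay above all 3 Sham-E libraries in 1768 genes (11.7%) and below them in 1838 (12.2%). The fold change was positive in 50.4% of genes, with a median of 0.00 on the log2 scale. DESeq2's Wald test called 212 genes, 83 higher and 129 lower. Without Sham-E 1, edgeR called 117 of 15496 genes (0.755%), and without MI 2, which enters only through the shared estimate of spread, it called 59. Leaving out any other of the 12 libraries gave 0.

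The sequences below show the promoter element of the interferon genes, the list with the lowest median in the comparison. They are the bases just before the transcription start of 4 of its members, from RefSeq (GRCm38.p6), 5′ to 3′ on the gene's own strand, with the searched motif in capitals. It is 2 copies of GAAA with any 2 bases between them, or the same on the other strand (TTTC, 2 bases, TTTC), and overlapping matches run together. The stretches are chr19:34583369-34583528 on the plus strand for Ifit3, chr19:34640779-34640888 on the plus strand for Ifit1, chr4:156200819-156200908 on the minus strand for Isg15 and chr5:120907526-120907575 on the minus strand for Oas1a.
Ifit3: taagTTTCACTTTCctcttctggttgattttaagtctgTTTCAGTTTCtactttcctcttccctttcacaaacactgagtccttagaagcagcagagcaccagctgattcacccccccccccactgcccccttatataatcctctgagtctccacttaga
Ifit1: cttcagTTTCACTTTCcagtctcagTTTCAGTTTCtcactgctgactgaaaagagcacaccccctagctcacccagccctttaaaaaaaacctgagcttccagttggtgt
Isg15: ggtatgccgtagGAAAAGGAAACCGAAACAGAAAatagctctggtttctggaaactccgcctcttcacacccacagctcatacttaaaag
Oas1a: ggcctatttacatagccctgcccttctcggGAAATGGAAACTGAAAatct

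Of the 34 interferon genes, 24 matched a RefSeq promoter window by symbol, and 13 of these (54.2%) held the motif on either strand within 250 bases before the start. Over all 27025 genes with a RefSeq window 3.46% did, and 1 of 20 early B-lineage genes, 2 of 14 megakaryocyte genes and 4 of 24 ribosomal protein genes. The median log2 fold change of MI-E against Sham-E was −0.94 for the 13 interferon genes with a match (−2.43 to −0.46) and −0.79 for the 11 without one (−3.32 to −0.27). A match describes the letters in the window and is not evidence of binding.

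Interferon-response genes were lower in MI-E as a list. All 34 had a negative fold change, against 49.6% of all genes, with a median of −0.94 on the log2 scale. At an unadjusted p under 0.05, 24 of 34 were lower, against 7.45% of all genes, and in 8 of 34 the libraries did not overlap, against 12.2%. None passed the adjusted p. In bulk marrow, fewer cells of a type and less RNA per cell cannot be told apart.
Ifit2, which binds RNA and restrains translation, stood at 14.8, 13.3 and 14.9 CPM in MI-E 2, 3 and 4 and at 23, 25.6 and 24.9 CPM in Sham-E 1, 2 and 3. Every MI-E library was lower, by −0.77 ± 0.17 (log2 ± SE; edgeR adjusted p = 0.24). Dhx58, a regulator of the RNA sensor RIG-I, stood at 20.3, 21.5 and 17.7 CPM against 23.2, 38.6 and 37.8 CPM, with no overlap (−0.74 ± 0.19). Ifi44 stood at 0.423, 0.334 and 0.273 CPM against 0.692, 4.35 and 5.42 CPM, so Sham-E 1 was close to MI-E while the other Sham-E libraries were far above.
Sham-E 1 fell on the MI-E side for much of the list. Ifit3 had 2.33, 2.95 and 2.37 CPM in MI-E, 18.8 and 21.4 CPM in Sham-E 2 and 3, and 1.17 CPM in Sham-E 1. Ifit1 had 5.88, 6.53 and 7.37 CPM in MI-E, 23.7 and 29.8 CPM in Sham-E 2 and 3, and 3.11 CPM in Sham-E 1. Both groups therefore overlapped through that library alone. Iigp1, an interferon-induced GTPase, had 2.79, 1.95 and 2.32 CPM in MI-E and 2.68, 6.52 and 13.3 CPM in Sham-E.
As mean log2 CPM, the list stood at 3.94, 4.19 and 4.07 in MI-E and 3.85, 5.45 and 5.55 in Sham-E. Without Sham-E 1 the median was −1.29, and 11 of 34 genes were past an edgeR adjusted p of 0.05, all lower, against 0.478% of all genes: Ifit3 (−2.98), Ifi44 (−3.81), Mx2 (−2.18), Iigp1 (−2.07), Ifit1 (−2.02), Xaf1, Oasl1, Irgm1, Irf9, Dhx58 and Stat2. Without EMPA the median of MI against Sham was −0.52. The interaction, which is the infarction difference with EMPA less that without, had a median of −0.43 over the list, and none of the 34 passed it. Ifitm1, Ifitm2 and Ifitm6, of a family named for induction by interferon, are outside the list and went the other way. Without Sham-E 1 they passed as higher in MI-E (2.10, 1.18 and 1.39), and with it the groups overlapped. Cxcl10, an interferon-induced chemokine of the inflammation list, stood at 1.1, 1.52 and 0.637 CPM in MI-E and at 2.72, 4.7 and 4.53 CPM in Sham-E (−1.87 ± 0.45, edgeR adjusted p = 0.24).

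**Figure D1:**
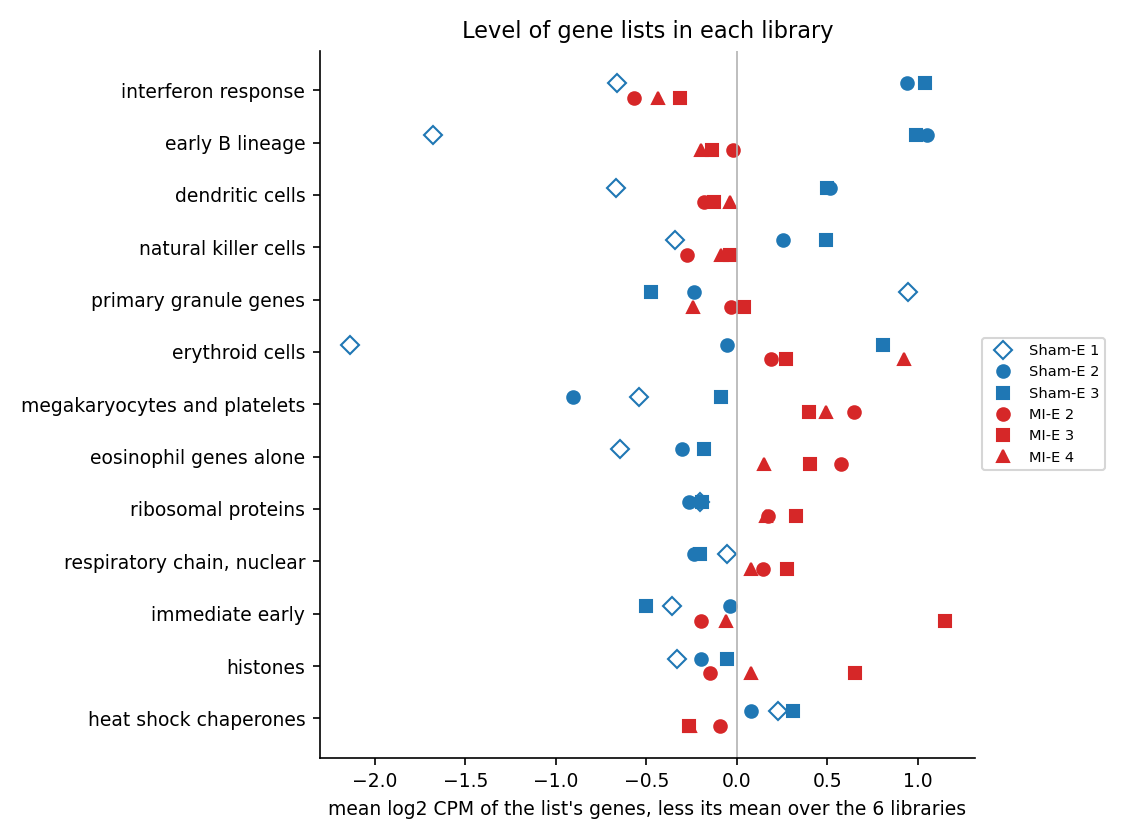
Level of 13 gene lists in each library, as the mean log2 CPM of the list's genes less its mean over the 6 libraries (x axis); blue symbols are Sham-E and red symbols MI-E, 1 symbol per library, with Sham-E 1 as an open diamond. Megakaryocyte, eosinophil, ribosomal protein and respiratory chain lists separate the groups in every library, whereas in the interferon, early B-lineage and primary granule lists Sham-E 1 lies far from Sham-E 2 and 3, and in the erythroid list it lies below all other libraries.

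Genes of early B-lineage cells were lower in MI-E than in Sham-E 2 and 3 and higher than in Sham-E 1. The list had a median of −0.61, with 19 of 22 genes negative, 1 lower at an unadjusted p under 0.05 (7.45% of all genes) and 0 past the adjusted p. Its mean log2 CPM was 4.84, 4.73 and 4.66 in MI-E and 3.18, 5.91 and 5.85 in Sham-E.
Rag1, the recombinase subunit that cuts antigen receptor genes, had 46.7, 36.5 and 32.6 CPM in MI-E, 185 and 207 CPM in Sham-E 2 and 3, and 1.21 CPM in Sham-E 1. Igll1, part of the surrogate light chain of the pre-B-cell receptor, had 7.57, 5.29 and 6.05 CPM in MI-E, 37.5 and 29.1 CPM in Sham-E 2 and 3, and 0.13 CPM in Sham-E 1. Vpreb1, its partner, had 6.98, 5.34 and 6.28 CPM, then 23.7 and 26.2 CPM, and 0.216 CPM in Sham-E 1. Sham-E 1 was below all 5 other libraries in 20 of the 22 genes. Only Myb, a transcription factor of progenitors, was lower in MI-E without overlap, at 170, 149 and 169 CPM against 204, 294 and 273 CPM (−0.66 ± 0.19).
Without Sham-E 1 all 22 genes were negative, against 47.4% of all genes, with a median of −1.01, and 6 passed, all lower (0.478% of all genes): Igll1 (−2.40), Vpreb1 (−2.01), Sox4 (−1.41), Dntt (−1.37), Lef1 (−0.97) and Blnk (−0.83). Dntt, the template-free polymerase of receptor rearrangement, had 21.4, 13.5 and 18.8 CPM in MI-E and 9.21, 52.8 and 39.5 CPM in Sham-E. Rag1 did not pass (−2.35, edgeR adjusted p = 0.076). In MI against Sham the median was −1.21, with all 22 negative.
Later B-cell genes overlapped between the groups with all libraries. Mature B-cell genes had a median of −0.10 (9 of 25 positive) and plasma-cell genes −0.22 (2 of 12 positive, −0.35 without Sham-E 1), with 0 members at an unadjusted p under 0.05 in either list. Ms4a1, which encodes CD20, overlapped (−0.31 ± 0.34), as did Ighm (−0.19 ± 0.29), Ighd (−0.06 ± 0.27) and Cxcr4, the receptor for CXCL12 (0.07 ± 0.21). Without Sham-E 1, every MI-E library was below Sham-E 2 and 3 in Ms4a1 (−0.50) and Ighm (−0.51, edgeR adjusted p = 0.19). Ighd (0.03) and Cxcr4 (−0.16) still overlapped. Cd79a and Il7r belong to the early list and overlapped with and without Sham-E 1. Cd79a, of the B-cell receptor, had 192, 245 and 191 CPM in MI-E and 113, 241 and 226 CPM in Sham-E. It differed by 0.12 ± 0.29, and by −0.16 without Sham-E 1. Il7r, the interleukin-7 receptor gene, differed by 0.10 ± 0.46, and by −0.34 without Sham-E 1. Pou2af1, a coactivator of B cells, passed the threshold without Sham-E 1 and was lower. Sdc1 of the plasma-cell list also passed as lower without Sham-E 1 (−1.14, edgeR adjusted p = 0.025). It was 1 of 12 in that list, against 0.478% of all genes.

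Megakaryocyte and platelet genes were higher in MI-E, with or without Sham-E 1. The median was 0.99 and 18 of 19 were positive. At an unadjusted p under 0.05, 12 of 19 were higher, against 5.99% of all genes, and in 14 of 19 every MI-E library was above every Sham-E library, against 11.7%. None passed the adjusted p.
Itga2b, the platelet integrin chain that binds fibrinogen, had 93, 71.8 and 92.3 CPM in MI-E and 43.1, 37.7 and 46.1 CPM in Sham-E, a difference of 1.02 ± 0.23 (edgeR adjusted p = 0.24). Gp5, of the receptor for von Willebrand factor, had 15.8, 10.9 and 14.5 CPM against 4.84, 4.46 and 7.95 CPM (1.26 ± 0.40). Gp1bb of the same receptor had 20.8, 17.6 and 14.6 CPM against 7.91, 3.07 and 6.71 CPM, but 92.9% of its exon bases are shared with another gene and its counts are uncertain.
The lowest MI-E library was above the highest Sham-E library for each of these genes. Without Sham-E 1 the median was 1.03 and 0 of 19 passed. In MI against Sham it was −0.27, and the interaction had a median of 1.19 with 0 of 19 past the threshold. Without EMPA the list's mean log2 CPM was 3.76, 2.99 and 3.20 in MI, and the Sham libraries alone spanned 2.77 to 4.05. With EMPA it was 4.25, 4 and 4.10 in MI-E and 3.06, 2.70 and 3.52 in Sham-E. Stromal niche genes were also highest among Sham-E in Sham-E 3, at 3.59, against 2.63 and 2.22 in Sham-E 1 and 2 and 2.99 to 3.47 in MI-E, and their part in the result was not tested.

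Genes of eosinophils were higher in MI-E, while 6 of the 8 mast-cell and basophil genes had a negative fold change. The list of all 3 cell types had a median of 0.24, with 10 of 16 positive and 5 higher at an unadjusted p under 0.05, against 5.99% of all genes. The 8 eosinophil genes alone, a split made after seeing the values, held all 5 of these and were all positive. They had a median of 0.74, and in 6 of 8 the groups did not overlap, against 11.7% of all genes. Their median length was 553 bp. Among the shortest genes, up to 1054 bp, 24.4% were higher in MI-E without overlap and the median was 0.21. Over the alternative settings the median of the 8 genes ran from 0.39 to 0.86. The part of gene length in their difference was not tested.
Prg2 encodes the major basic protein of the eosinophil granule (chr2:84980461-84983632, mm10). It had 2586, 2046 and 1718 CPM in MI-E and 661, 892 and 995 CPM in Sham-E, a difference of 1.32 ± 0.23 (edgeR adjusted p = 0.24). Every MI-E library had more than any Sham-E library. Epx, the eosinophil peroxidase, had 680, 526 and 399 CPM against 198, 321 and 300 CPM (0.97 ± 0.22). Ear2, an eosinophil ribonuclease, had 391, 333 and 274 CPM against 157, 209 and 202 CPM (0.81 ± 0.24), and its close copies Ear1 and Ear6 may share reads with it. Prg3 had 66.2, 56 and 48 CPM against 19.6, 38.4 and 45 CPM, which left a narrow gap.
MI and Sham without EMPA did not show this order: Prg2 was at 1530, 982 and 1606 CPM in MI and 1138, 1364 and 1368 CPM in Sham. The interaction for Prg2 was 1.23, with an edgeR adjusted p of 0.25.

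The genes with the smallest p were a mixed set. By the naming rule, the 8 in each direction were taken, and all 16 had edgeR adjusted p-values of 0.12 or 0.24 with all libraries. DESeq2 called all 16.
Perp, a membrane protein of cell junctions and a target of p53, had the smallest p of all (chr10:18845020-18857073, mm10). It had 10.7, 10.7 and 8.83 CPM in MI-E and 3.5, 4.43 and 4 CPM in Sham-E, a difference of 1.34 ± 0.19 (edgeR adjusted p = 0.12). The groups did not overlap, and MI (8.33 to 9.37 CPM) was likewise above Sham (5.12 to 6.07 CPM). Without Sham-E 1 Perp passed (1.25, edgeR adjusted p = 0.02).
Relt, a receptor of the TNF family, had 112, 107 and 118 CPM in MI-E and 74.5, 67.2 and 75.4 CPM in Sham-E. Khk, the kinase that starts fructose breakdown, had 36.7, 39.6 and 40.7 CPM against 19.8, 21.5 and 21.7 CPM. Both genes separated the groups, by 0.64 ± 0.12 and 0.89 ± 0.17 on the log2 scale, and Relt passed without Sham-E 1 (edgeR adjusted p = 0.049). Higher as well were H2afj, a histone H2A variant (0.81 ± 0.17), Cox5b, a subunit of cytochrome c oxidase (0.59 ± 0.12), and Sdhaf1, an assembly factor of respiratory complex II (1.00 ± 0.19), with 69.6% of its exon bases shared with a gene on the opposite strand.
Mpzl3, a membrane protein with an immunoglobulin-like domain, had 2.96, 4.1 and 3.46 CPM in MI-E and 8.91, 13.4 and 14.9 CPM in Sham-E (chr9:45055186-45077436, mm10). The difference was −1.82 ± 0.31 (edgeR adjusted p = 0.24), and −2.01 without Sham-E 1 (edgeR adjusted p = 0.014). Slc9a7, a sodium-proton exchanger of the Golgi, had 3.43, 2.72 and 3 CPM against 5.15, 7.3 and 9.11 CPM (−1.23 ± 0.25). MI and Sham without EMPA differed by −1.41 in Slc9a7, close to the value with EMPA.
Nfat5, the transcription factor of osmotic stress, had 41.4, 43.6 and 38.9 CPM in MI-E and 66.9, 75.9 and 83 CPM in Sham-E (−0.86 ± 0.17). Atm, the kinase that signals DNA breaks, had 16, 16.1 and 15.1 CPM against 31.4, 24.4 and 26.7 CPM (−0.81 ± 0.16). Dtx3l, a ubiquitin ligase that pairs with Parp9 and is induced by interferon, had 38.9, 38.2 and 41.8 CPM against 63, 77.1 and 76.9 CPM (−0.87 ± 0.16). In each of these 3 genes MI-E was uniform and below every Sham-E library. Ankrd12 (−0.75 ± 0.14), the chromatin reader Brwd3 (−0.83 ± 0.17) and Zfyve26, an endosomal protein of autophagy (−0.63 ± 0.13), completed the 8.

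**Figure D2:**
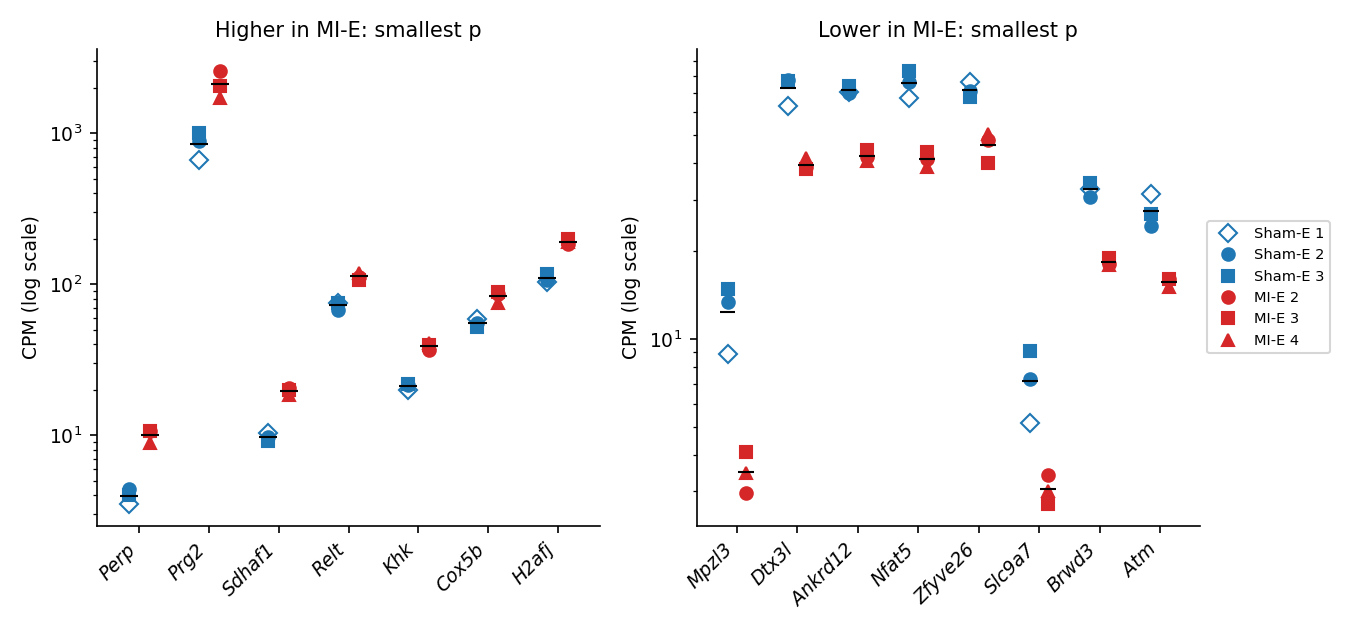
CPM on a log scale of the genes named for the smallest p in each direction, by library, with Sham-E in blue, MI-E in red and a black line at each group's mean. The groups do not overlap in any gene shown, which the naming rule required, and Sham-E 1 (open diamond) lies near the other Sham-E libraries for most.

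Gene length moved with the comparison. Genes were put in 5 equal groups by length. In the shortest group the median log2 fold change was 0.21, and 24.4% had every MI-E library above every Sham-E library. In the longest group the median was −0.21 and 29.9% had every MI-E library below. MI against Sham showed little of this, with medians of 0.04 and −0.01 in the same groups. Among the genes with the smallest p, Brwd3, Nfat5 and Atm are long and Khk, Cox5b and Prg2 short, but Slc9a7, lower in MI-E, is 1653 bp and Sdhaf1, higher, is 2212 bp. Mean insert length, recovered from the effective lengths behind the TPM values, was 280.2 to 282.7 bp in MI-E and 271.1 to 280.3 bp in Sham-E (exact permutation p = 0.2, two-sided, where 0.1 is the smallest possible).

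**Figure D3:**
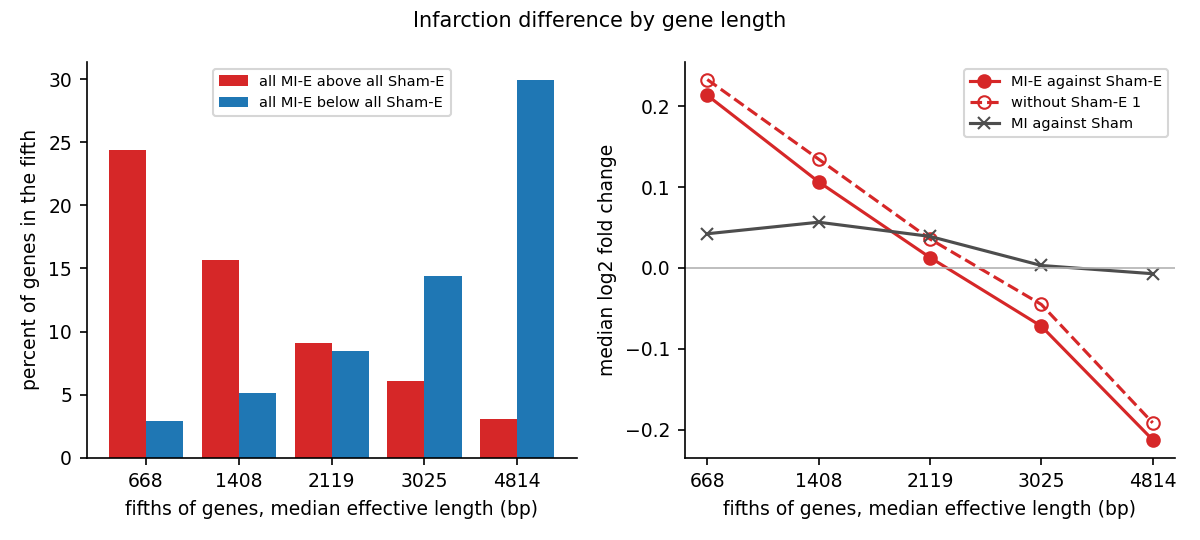
Genes in 5 equal groups by effective length, labelled with each group's median length. Left, the percentage of genes whose MI-E libraries all lie above (red) or all below (blue) the Sham-E libraries, going from 24.4% and 2.88% in the shortest group to 3.04% and 29.9% in the longest; right, the median log2 fold change, which slopes with and without Sham-E 1 but hardly in MI against Sham.

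Ribosomal protein and respiratory chain genes, most of them short, were higher in MI-E. All 34 ribosomal protein genes were positive, with a median of 0.43, and in 32 of 34 every MI-E library was above every Sham-E library, against 11.7% of all genes and 24.4% of the shortest group. Rpl8, of the large subunit, had 1264, 1204 and 1171 CPM in MI-E and 806, 759 and 759 CPM in Sham-E (0.65 ± 0.17, edgeR adjusted p = 0.24). Rps18, of the small subunit, had 974, 1078 and 949 CPM against 699, 620 and 657 CPM (0.60 ± 0.19). The share of counts in all ribosomal protein genes was 5.64% ± 0.288 in MI-E and 4.34% ± 0.134 in Sham-E (SD, n = 3 each). Its exact permutation p was 0.1, the smallest possible. With an offset for gene length, an alternative chosen after seeing the data, the median of the 34 listed genes was 0.20.
Nuclear genes of the respiratory chain had a median of 0.29, with 30 of 32 positive (50.4% of all genes), 16 higher at an unadjusted p under 0.05 (5.99%) and 21 higher without overlap (11.7%). Ndufv1, of complex I, had 99, 87.4 and 96.3 CPM in MI-E and 63.2, 67 and 66.8 CPM in Sham-E (0.52 ± 0.13). Ndufb8 and Ndufs3 of the same complex were higher by 0.50 ± 0.12 and 0.60 ± 0.15. With the length offset the list's median was 0.10. The 7 tested genes of the mitochondrial genome had a median of −0.02, against 0.98 in MI against Sham. Of the other 6, mt-Co2, mt-Co3, mt-Atp6, mt-Atp8 and mt-Nd4l are listed at 0 in all 6 libraries although every cell uses them.

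Immediate early genes were highest in MI-E 3. The list, of genes that switch on within minutes of a stimulus, had a median of 0.67, with 20 of 22 positive and 3 higher without overlap, near the 11.7% of all genes. Junb, a subunit of AP-1, had 431, 879 and 456 CPM in MI-E 2, 3 and 4 and 300, 358 and 224 CPM in Sham-E (1.00 ± 0.30, edgeR adjusted p = 0.25). Ier3 had 26.9, 51.9 and 24.5 CPM against 20.7, 16.4 and 9.38 CPM. Dusp1, a phosphatase that switches off MAP kinases, had 351, 767 and 234 CPM against 118, 259 and 182 CPM, which overlapped. Without MI-E 3 the median was 0.15, while in MI against Sham it was −0.71.
Inflammation genes had a median of 0.39, which was −0.02 without MI-E 3 and 0.09 without Sham-E 1. Cxcl2, a neutrophil chemokine, had 118 CPM in MI-E 3 against 30.5 and 24.3 CPM in MI-E 2 and 4 and 13.2 to 20.5 CPM in Sham-E. Socs3, the feedback inhibitor of cytokine signalling, had 78.5, 105 and 70.3 CPM in MI-E and 68.2, 31.4 and 20.6 CPM in Sham-E, and passed without Sham-E 1 (1.70, edgeR adjusted p = 0.045).
Histone genes had a median of 0.50 (22 of 24 positive), and 0.21 without MI-E 3. In MI against Sham it was −1.46, with 3 histone genes past the threshold, all lower. Hist1h1c had 148, 265 and 151 CPM in MI-E and 126, 134 and 122 CPM in Sham-E (0.56 ± 0.26). The share of counts in histone cluster genes was 0.0346% to 0.0529% in MI-E and 0.0264% to 0.0344% in Sham-E (exact permutation p = 0.1).
Heat shock chaperone genes had a median of −0.31, with 18 of 20 negative and 6 lower without overlap (12.2% of all genes), and −0.15 without Sham-E 1. Hspa1b, an inducible HSP70, had 2.41, 1.33 and 1.32 CPM in MI-E and 3.24, 12.9 and 18.4 CPM in Sham-E, and Hsph1 had 32.9, 29.9 and 30.8 CPM against 43.2, 51.7 and 73.8 CPM. Glucocorticoid-responsive genes were positive in 18 of 19, with a median of 0.47 (0.82 without Sham-E 1) and 4 higher without overlap (11.7% of all genes). Ddit4, an inhibitor of mTOR complex 1, had 114, 49.3 and 52.4 CPM against 30.3, 29.5 and 37.6 CPM (1.15 ± 0.54). The metallothionein Mt2 was higher by 1.04 ± 0.31, with 73.5% of its exon bases shared with another gene. In MI against Sham the median of this list was 0.92.

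Granulocyte and red-cell lists turned on Sham-E 1. Primary granule genes had a median of −0.23 with it and 0.28 without it, and Sham-E 1 was above all 5 other libraries in 13 of 13. Mpo, myeloperoxidase, had 1934, 1778 and 1609 CPM in MI-E and 4509, 2056 and 1405 CPM in Sham-E. Elane, neutrophil elastase, had 799, 722 and 682 CPM against 1935, 776 and 592 CPM. Neither separated MI-E from Sham-E 2 and 3. Fcnb, a ficolin of granulocyte precursors, did, at 110, 162 and 114 CPM against 297, 217 and 196 CPM (−0.88 ± 0.25). Secondary granule genes had a median of 0.03 (0.42 without Sham-E 1). Orm1 had 67.3 CPM in Sham-E 1 against 15.9 to 19.9 CPM in the other 5.
All 24 erythroid genes were positive, with a median of 0.59, and 0.08 without Sham-E 1, which was below all 5 others in all 24. Hba-a1, an alpha-globin gene, had 7163, 8927 and 12051 CPM in MI-E and 1871, 5210 and 8891 CPM in Sham-E. Car1, a red-cell carbonic anhydrase, had 339, 264 and 421 CPM against 47.9, 249 and 261 CPM. No erythroid gene reached an unadjusted p under 0.05.
Mature neutrophil genes had a median of 0.12 (17 of 25 positive). Fpr2, a formyl peptide receptor, had 225, 260 and 232 CPM in MI-E and 199, 180 and 149 CPM in Sham-E (0.44 ± 0.20, edgeR adjusted p = 0.37), and Fpr1 differed by 0.10 ± 0.15. Wfdc21 overlapped through Sham-E 1, at 298, 463 and 318 CPM against 371, 222 and 267 CPM (0.33 ± 0.22). Without Sham-E 1 the differences were 0.54 for Fpr2, 0.11 for Fpr1 and 0.56 for Wfdc21. Their edgeR adjusted p-values were 0.25, 0.78 and 0.23. Without EMPA these 3 genes were past the threshold in MI against Sham, by 1.18, 0.84 and 1.76. The tests of the difference gave interactions of −0.74, −0.74 and −1.44, with edgeR adjusted p-values of 0.31, 0.27 and 0.24.

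Monocyte genes had a median of −0.07, with 6 of 16 positive (0.13 without Sham-E 1), and Cx3cr1 was lower in every MI-E library. This receptor for fractalkine marks patrolling monocytes. It had 10.4, 14.6 and 16.5 CPM in MI-E and 32.6, 38.3 and 37.2 CPM in Sham-E, a difference of −1.38 ± 0.35 (edgeR adjusted p = 0.24), and MI against Sham differed by −1.37. All 3 Sham-E libraries, Sham-E 1 included, were at about the same level. Csf1r, the receptor for macrophage colony-stimulating factor, was lower by −0.31 ± 0.13.
Dendritic-cell genes had a median of −0.46, with 11 of 14 negative (−0.72 without Sham-E 1). Tcf4, the factor of plasmacytoid dendritic cells, had 30.7, 33.8 and 31.6 CPM in MI-E and 37, 65.5 and 68.3 CPM in Sham-E, and passed without Sham-E 1 (−1.06, edgeR adjusted p = 0.02). Siglech, a receptor of the same cells, had 27, 25.4 and 32.8 CPM against 23.2, 60.5 and 55.2 CPM. Natural killer genes had a median of −0.28 (10 of 13 negative) and T-cell genes 0.28 (13 of 17 positive). Without Sham-E 1, which was below all 5 other libraries in 12 of the T-cell genes, the T-cell median was 0.15. Lat, an adaptor of the T-cell receptor, had 15.9, 15.7 and 15.9 CPM against 8.48, 10.1 and 9.29 CPM (0.77 ± 0.27).
Lists of stem and progenitor cells (median 0.04), marrow macrophages (−0.12), osteoclasts (0.28), osteoblasts and bone matrix (−0.15), stromal niche (0.13), mitosis (−0.00) and replication (0.16) had members in both directions. Without Sham-E 1 the median was −0.04 for marrow macrophages, −0.24 for osteoblasts, 0.07 for the stromal niche, −0.15 for mitosis and 0.03 for replication. Cxcl12, the stromal factor that holds stem cells and B-cell precursors in the niche, had 267, 192 and 300 CPM in MI-E and 89.3, 44.3 and 228 CPM in Sham-E (1.07 ± 0.52, edgeR adjusted p = 0.40). Adipoq, of adipocytes, had 9.09, 5.38 and 8.01 CPM against 1.6, 0.544 and 5.38 CPM. Il7 was low in all 6 libraries, at 0.238 to 0.719 CPM. Alpl, the alkaline phosphatase of osteoblasts, had 0.973, 1.33 and 1.14 CPM against 0.216, 3.77 and 4.22 CPM and passed without Sham-E 1 (−1.80). Runx2, a bone and lymphoid transcription factor, was lower by −0.51 ± 0.14 without overlap.
Skeletal muscle genes, which mark tissue next to the bone, had a median of 0.68 over 7 tested genes, and 0.36 without Sham-E 1. Ckm had 1.61, 1.1 and 1.41 CPM in MI-E and 0.432, 0.427 and 0.0444 CPM in Sham-E. The adult myosin genes Myh1, Myh2 and Myh4 had at most 3 counts in any of the 6 libraries.

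Metabolic and transport genes had medians near 0 with all libraries. Glycolysis genes had a median of 0.10, and 0.47 without Sham-E 1, with 18 of 20 positive. Sham-E 1 was above all 5 other libraries in 15 of these genes. Fat oxidation and ketone genes had a median of 0.08 (0.15 without Sham-E 1). Acat1, which acts in ketone use, had 76.1, 92.5 and 83.5 CPM in MI-E and 58.7, 57.3 and 62.1 CPM in Sham-E (0.50 ± 0.12, edgeR adjusted p = 0.24). Sodium, glucose and proton transport genes had a median of −0.15 over 10 tested. Slc5a2, the sodium-glucose cotransporter SGLT2, was at 0.592, 1.33 and 1.5 CPM in MI-E and at 0, 0.233 and 0.4 CPM in Sham-E (2.41 ± 0.91, edgeR adjusted p = 0.30). These are few counts, and 20.6% of its exon bases are shared with another gene. Slc5a1, which encodes SGLT1, had 0 counts in all 6 libraries.

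**Figure D4:**
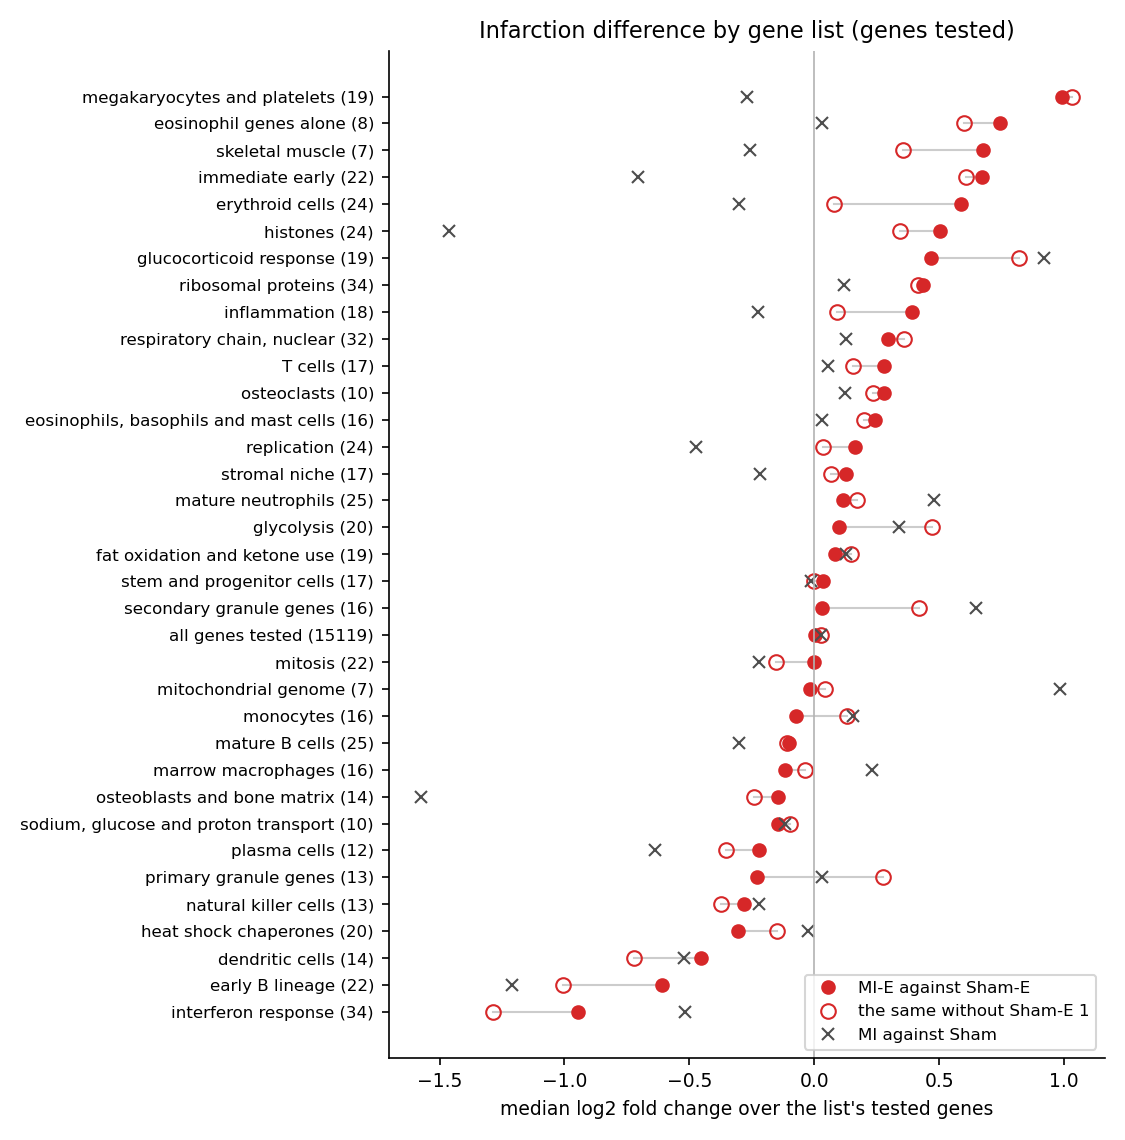
Median log2 fold change of each gene list, with the number of genes tested in brackets: filled red, MI-E against Sham-E; open red, the same without Sham-E 1; grey crosses, MI against Sham. The interferon and early B-lineage lists lie lowest (−0.94 and −0.61), the megakaryocyte list highest (0.99), and the grey cross lies on the other side of zero for several lists, among them megakaryocyte, skeletal muscle, immediate early, erythroid, histone, inflammation, replication and stromal niche genes.

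Without Sham-E 1 the comparison of 3 MI-E with 2 Sham-E libraries called 43 genes higher (0.277%) and 74 lower (0.478%). These calls rest on leaving out a library that had been seen to stand apart. Sham-E 1 was above all 5 other libraries in 25 of the 43 and below all 5 in 37 of the 74, against 25.7% and 25.5% of all genes. In those genes it lay beyond MI-E and not on the side of its own group. In 13 of the 43 and 24 of the 74 the groups did not overlap with Sham-E 1 included, against 11.7% and 12.2% of all genes. With it included, 37 of the 43 and 74 of the 74 had the same sign.
Vcan, the matrix proteoglycan versican, had the smallest p (chr13:89655312-89742509, mm10). It had 185, 154 and 170 CPM in MI-E, 24.2 and 20.3 CPM in Sham-E 2 and 3, and 386 CPM in Sham-E 1. The difference was 2.93 without Sham-E 1 (edgeR adjusted p = 0.00011) and 0.24 ± 0.86 with it. In the libraries without EMPA, Vcan had 228 to 308 CPM in MI and 22.2 to 33.1 CPM in Sham.
Wfdc17, a secreted protein of myeloid cells, had 108, 171 and 102 CPM in MI-E, 21.7 and 24.1 CPM in Sham-E 2 and 3, and 91.7 CPM in Sham-E 1. Ifitm1, a membrane protein that limits virus entry, had 141, 187 and 119 CPM, then 42.6 and 26.9 CPM, and 148 CPM. Igfbp6, which binds insulin-like growth factor II, had 8.33, 5.1 and 8.28 CPM, then 0.582 and 0.178 CPM, and 5.66 CPM. In all of them Sham-E 1 had a level near that of the infarcted groups. Wfdc17 was higher in all 3 MI-E libraries than in any Sham-E library (1.47 ± 0.48 with all libraries, 2.47 without Sham-E 1).
The fold changes of MI against Sham, from 6 other libraries, had the same sign in 43 of the 43 higher genes and 73 of the 74 lower ones, where 61.6% of all 15119 genes had the same sign in both comparisons. The median was 1.57 in MI-E against Sham-E 2 and 3 and 1.25 in MI against Sham for the higher genes, and −1.47 and −0.90 for the lower genes. The calls of MI against Sham are not set beside these, since that comparison itself had 63 with Sham-E 1 in the fit and 1224 without it. The counts were fixed by the fit without Sham-E 1 and are a description.

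**Figure D5:**
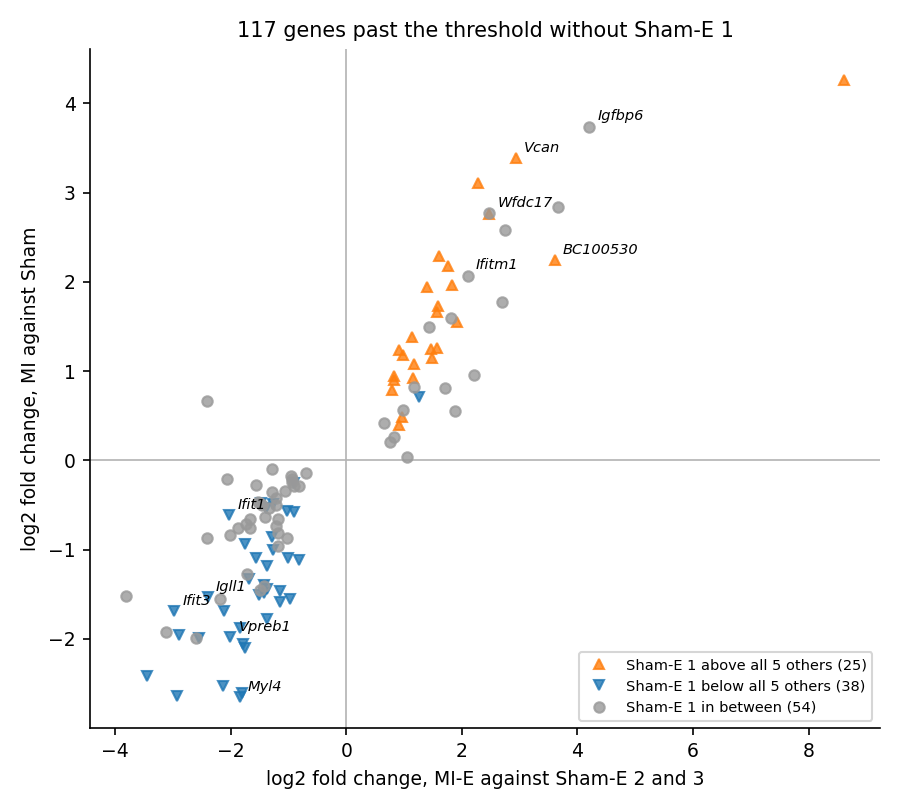
The 117 genes past an edgeR adjusted p of 0.05 without Sham-E 1, by log2 fold change in MI-E against Sham-E 2 and 3 (x axis) and in MI against Sham (y axis). Symbols show whether Sham-E 1 was above all 5 other libraries (25 genes), below all 5 (38) or in between (54); 116 of the 117 have the same sign on both axes.

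Whether the infarction difference itself depended on EMPA was tested by the interaction. It called 1 of 15119 genes (0.00661%), with 2042 at an unadjusted p under 0.05 (13.5%), and DESeq2 called 167. The gene was B430305J03Rik, described in the closing section. Without MI 1, edgeR called 150.
The other genes with the smallest p had an edgeR adjusted p of 0.22 each. Slco4c1, an organic anion transporter, had 39.2, 34.5 and 34.1 CPM in MI-E, 39.7 to 50.1 CPM in Sham-E, 61.8 to 66.9 CPM in MI and 37.1 to 41.4 CPM in Sham, an interaction of −1.06. Clec4a1, a C-type lectin of myeloid cells, had 27.8 to 29 CPM in MI-E and 27.9 to 45.1 CPM in Sham-E, against 47.7 to 53.3 CPM in MI and 23.1 to 25.4 CPM in Sham (−1.31). In both, MI stood above the other 3 groups. Gpr141 (−0.96), Gpr65, a receptor that senses acid (−1.16), and BE692007 (−1.14) had the same order.
Pfdn6, a prefoldin subunit that helps fold actin and tubulin, went the other way. It had 41.5, 33.4 and 32.2 CPM in MI-E and 20.5 to 23.2 CPM in Sham-E, but 15.4 to 20.5 CPM in MI and 23.1 to 31.4 CPM in Sham (1.38). Bex3 had 28.7 to 29.3 CPM in MI-E, 21.6 to 25.9 CPM in Sham-E and 8.53 to 17.4 CPM in MI, with 29.9 to 30.7 CPM in Sham (1.55), and the linker histone Hist1h1d had an interaction of 2.22. Mean inserts measured 263.3 to 265.2 bp in MI and 271.1 to 286.9 bp in the remaining libraries, with no overlap, so insert length and the MI group cannot be told apart in these interactions.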

How the data were processed

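Whole bone marrow RNA of 12 libraries was analysed, 3 in each of 4 groups. Per the submitters' processing notes, CASAVA 1.8, STAR 2.4.0j, RSEM and the build mm10 were used. How they were run, the annotation and the strand of the reads: not given in the sources used here. The authors deposited expected counts per gene, already whole numbers in the table, and TPM values, which are scaled by length and to a common total. The column numbers (for MI-E 2, 3 and 4, for Sham 1, 3 and 4, otherwise 1, 2 and 3) differ from the sample titles, which run from 1 to 3. A column of Sham-E or MI could be tied to 1 sample, while a column of Sham or MI-E was tied to its group alone.

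Counts of 53801 genes were filtered by filterByExpr to 15119 and scaled by TMM. All 12 libraries entered 1 fit of edgeR 4.0.16 in R 4.3.3 (quasi-likelihood F-test, robust dispersions), with 8 residual degrees of freedom, for MI-E against Sham-E, MI against Sham and their difference. P-values were adjusted by Benjamini-Hochberg over all genes, with a threshold of 0.05. Each SE was taken from the log2 fold change and F. DESeq2 1.42.0 and limma 3.58.1 were alternatives. The script was tested on simulated data. Positions and shared exons are from GENCODE M21, and promoters from RefSeq GRCm38.p6.

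The comparison, the 33 gene lists and the naming rule were chosen with earlier results of these data known, and 2 more lists (eosinophil genes alone, circadian clock) after seeing the values. Lists are described by counts and medians, without a test. The naming rule took up to 12 genes in each direction past the threshold and, since none passed, the 8 smallest p in each direction whose mean log2 CPM was 1 or more, with groups that did not overlap and no predicted or small RNA name, up to 4 members of a list with the smallest p, a fixed set of B-cell, neutrophil and transporter genes, and the 8 smallest p of the interaction. Genes past the threshold without Sham-E 1, and a few others named for what they show (Ifit1, Isg15, Oas1a and B430305J03Rik among them), were chosen after seeing their values. Total counts were 21175087 to 24606783 per library, and intervals given cover counting error only. Some genes that the rule names are not reported here.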

Additional observations from a re-analysis of the deposited data

Results flagged for a closer look

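B430305J03Rik, a gene on chr3:61362250-61365951 (mm10), was flagged because the infarction difference with EMPA and that without it differed by the test of the interaction, by 7.39 on the log2 scale (edgeR adjusted p = 0.0072). With EMPA it had 4.44, 5.72 and 6.32 CPM in MI-E and 7.74, 3.42 and 4.58 CPM in Sham-E, a difference of 0.07 ± 0.40. Without EMPA it had 7.19 to 9.85 CPM in Sham and 0, 0.149 and 0 CPM in MI. These are 612 counts in Sham and 3 in MI, a ratio of 180 with a 95% exact interval of 61.2 to 873 for counting error only. The fitted fold change depends on the prior count. All of its exon bases (100%) lie opposite exons of Rap2b, which had 35.1 to 41.4 CPM in MI-E, 36.7 to 44.5 CPM in Sham-E, 44.8 to 53.1 CPM in MI and 32.1 to 35.9 CPM in Sham. Without strand, reads of the pair cannot be told apart, and the strand setting is not given in the sources used here. Over the alternatives the adjusted p of the interaction ran from 4.9e-14 to 0.14.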

How the results depend on the processing

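The number of genes past the threshold in MI-E against Sham-E was 0 with edgeR, and 0 with DESeq2's size factors, upper quartile factors, limma-voom, limma on log2(TPM + 1), both other filters, the 2 groups alone and the replicate block. It was 212 with DESeq2 and 0 to 117 when each library was left out. Among alternatives added after seeing the data, limma-voom with sample weights (0.223 for Sham-E 1, 4.56 for Sham-E 2) called 3285, the length offset 0, and without Sham-E 1 the length offset called 111, DESeq2 690 and the 2 groups alone 1049. Of the 117 calls without Sham-E 1, 29 were among DESeq2's 212, and 14 among the 59 without MI 2. For MI against Sham the 63 calls became 1066 with DESeq2, 282 on log2(TPM + 1), 156 with no filter, 344 with the 2 groups alone, 1 with the replicate block, 340 with sample weights and 108 with the length offset, and without Sham-E 1 1405 with the length offset and 2050 with DESeq2. Leaving out each library gave 1 to 1224. For the interaction, 1 became 167 with DESeq2, 0 with limma-voom and with the replicate block, 7 on log2(TPM + 1), and without Sham-E 1 2 with the length offset and 115 with DESeq2, while each library left out gave 1 to 150. B430305J03Rik kept its direction but lost the call with limma-voom, sample weights and the block. For column numbers shared by the groups, the correlation of deviations from the group means was −0.08 for number 2 and −0.14 for number 3. The Sham-E mean includes Sham-E 1, which stood apart, so these values cannot exclude that numbers pair the libraries. The cause of the differences in calls was not tested.

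Of 96 genes followed on the log2 scale in MI-E against Sham-E, 82 kept their direction in every alternative. The values below are of MI-E against Sham-E. With limma-voom Igll1 was 0.14, Rag1 0.064 and Vpreb1 0.19. On log2(TPM + 1) Cd79a was −0.017, Cxcr4 −0.12, Fpr1 −0.095 and B430305J03Rik −0.059. With sample weights Cd79a was −0.20, Il7r −0.082, Cxcr4 −0.19 and Fpr1 −0.018. With the length offset Cd79a was −0.021, Cxcr4 −0.050 and Fpr1 −0.050. With the length offset and without Sham-E 1 Cd79a was −0.30, Il7r −0.30, Cxcr4 −0.28, Il7 −0.020, Mpo 0.0056 and Fpr1 −0.0527. With DESeq2 and without Sham-E 1 Cd79a was −0.16, Ighd 0.023, Il7r −0.34, Cxcr4 −0.17, Mpo 0.029 and Elane 0.095. With the 2 groups alone and without Sham-E 1 Cd79a was −0.16, Ighd 0.029, Il7r −0.34, Cxcr4 −0.16, Il7 −0.023, Mpo 0.034 and Elane 0.10. With the replicate block Ighd was 0.12 and Il7 −0.061. When each library was left out in turn, Cd79a ran from −0.16 to 0.30, Ighm from −0.51 to 0.017, Ighd from −0.24 to 0.096, Il7r from −0.34 to 0.50, Cxcr4 from −0.16 to 0.21, Il7 from −0.14 to 0.48, Mpo from −0.89 to 0.035, Elane from −0.88 to 0.10, Vcan from −0.27 to 2.93 and B430305J03Rik from −0.17 to 0.46.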

Other observations

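Clock genes were a list added after seeing the data. In 3 of 17 every MI-E library was above every Sham-E library, against 11.7% of all genes. In 1 of 17 every MI-E library was below, against 12.2%. Arntl, which encodes the clock activator BMAL1, had 10.1, 8.96 and 10.1 CPM in MI-E, 29.1 and 28.6 CPM in Sham-E 2 and 3, and 8.48 CPM in Sham-E 1. Its groups overlapped through Sham-E 1. MI had 11 to 12.9 CPM and Sham 20 to 28.7 CPM. Without Sham-E 1 Arntl passed the threshold in MI-E against Sham-E (−1.57, edgeR adjusted p = 0.0033). Per1, a repressor of the clock, had 114, 85.7 and 106 CPM in MI-E and 35.8, 43.9 and 61.9 CPM in Sham-E, and Tef and Nr1d1 were likewise higher in all 3 MI-E libraries. The list as a whole had a median of 0.14, with 11 of 17 positive. The hour of collection is not given in the sources used here, and its part in these values was not tested.

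Other genes had the same order of libraries as the early B-lineage genes. Myl4, a myosin light chain, had 6.09, 9.34 and 6.14 CPM in MI-E, 25.3 and 26.3 CPM in Sham-E 2 and 3, and 0.476 CPM in Sham-E 1. Lgr5, a receptor for R-spondins, had 1.48, 1.33 and 1.37 CPM, then 10.2 and 10.6 CPM, and 0.0432 CPM. Tac2, a tachykinin precursor, had 0.296, 1.1 and 0.819 CPM, then 6.02 and 9.95 CPM, and 0.0432 CPM. In MI and Sham without EMPA the order was the same, with Lgr5 at 1.3 to 5.16 CPM in MI and 8.19 to 13.6 CPM in Sham, and Tac2 at 0.294 to 1.24 CPM and 4.27 to 4.99 CPM. These genes were chosen after their values were seen.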
